A study of Mus musculus with 8 samples.

Results

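The 8 genes described here are carried by the mouse mitochondrial genome and were chosen by name. They are mt-Co1, mt-Co2 and mt-Co3, mt-Cytb, mt-Atp6 and mt-Atp8, and the ribosomal RNAs mt-Rnr1 and mt-Rnr2. Reads were taken when Nanopolish had tagged the tail estimate PASS, and each read was counted once per transcript. By this rule 53590 of 2027632 reads belonged to these genes. They came from 6 of the 8, out of 13966 genes with a read. The series held poly(A) tail lengths of single RNA molecules from undifferentiated mouse P19 embryonal carcinoma cells, read by nanopore direct RNA sequencing after selection on oligo(dT) beads. Cells had been given 10 µM MHY1485 (MHY), an activator of the kinase mTOR, or the solvent DMSO alone, for 24 h or 48 h, which makes 4 groups with 2 biological replicates each. Libraries are named by the number in the deposited table. Numbers 21 and 23 belong to 24 h, and numbers 24 and 25 belong to 48 h.

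The mitochondrial genome encodes a small set of proteins, all of them subunits of the respiratory chain or of ATP synthase. Its mRNAs are transcribed as long precursors, are cut out at the flanking tRNAs and receive a short poly(A) tail from a polymerase inside the organelle. The tail has a known role in completing stop codons, because some reading frames end in a lone T of the genome and become UAA only when A residues are added. mt-Co1, mt-Co2 and mt-Co3 encode the catalytic core of cytochrome c oxidase (complex IV). mt-Cytb encodes cytochrome b of complex III, and mt-Atp6 and mt-Atp8 encode membrane subunits of ATP synthase (complex V). mt-Rnr1 and mt-Rnr2 are the RNAs of the small and large mitochondrial ribosomal subunits.

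The last 30 bases of each coding transcript, up to its annotated end, are given with the encoded part of the stop codon in capitals (GENCODE vM21 transcripts, mm10, 5′ to 3′, + strand of the mitochondrial genome). Most reads of mt-Atp8 continue past its annotated end, as described below.
mt-Co1: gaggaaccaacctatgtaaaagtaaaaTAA
mt-Co2: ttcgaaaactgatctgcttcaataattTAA
mt-Co3: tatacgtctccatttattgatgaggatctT
mt-Cytb: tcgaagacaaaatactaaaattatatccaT
mt-Atp6: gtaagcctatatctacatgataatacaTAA
mt-Atp8: tatttgcctcattcattaccccaacaaTAA

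mt-Co3 and mt-Cytb therefore carry 1 encoded base of their stop codon, while the other mRNAs carry all 3. On the mitochondrial genome (MT, mm10), mt-Co1 spans positions 5328 to 6872, mt-Co2 7013 to 7696, mt-Atp8 7766 to 7969, mt-Atp6 7927 to 8607, mt-Co3 8607 to 9390 and mt-Cytb 14145 to 15288. Each is a single exon. mt-Atp8 and mt-Atp6 overlap by 43 bases, and mt-Atp6 and mt-Co3 share 1 base. mt-Co3 and mt-Cytb are each followed directly by a tRNA gene (mt-Tg and mt-Tt) with a gap of 0 bases, so that their encoded T is the last base before the tRNA.

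mt-Rnr1 and mt-Rnr2 had 0 alignments among the 2439710 of the table used here, under any quality tag. The comparison of the mRNAs with the rRNAs was therefore not made, and the rRNAs were not analysed here. Neither a tail nor a read share can be given for them.

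The 8 libraries held 187690 to 333435 PASS reads, of which 2.83% to 3.90% fell on genes of the mitochondrial genome. Pou5f1, a pluripotency marker, had 5098 reads over all libraries, whereas Zfp42 had 0. Markers of neurons made up 0.0204% to 0.0384% of reads, most of them Stmn2, with 0 reads of Dcx. Barcoded libraries of 1 time point were pooled. The deposited lines carry 3 sample names at 24 h and 2 at 48 h, which are taken here as sequencing runs. The paper describes 2 multiplexed preparations per time point, so what the 3 names at 24 h stand for is not given. Each run thus held both treatments but only 1 time point, and time and run cannot be told apart. In bulk RNA of this kind, fewer mitochondria per cell and less RNA per mitochondrion cannot be told apart either.

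mt-Co1 had 18537 reads, mt-Co2 12125, mt-Atp6 11210, mt-Co3 7010 and mt-Cytb 4699, whereas mt-Atp8 had 9. The low number of mt-Atp8 was a matter of the quality tag. The table held 13077 reads aligned to mt-Atp8, and 13063 of them (99.9%) were aligned to mt-Atp6 or to its nuclear copy as well. Nanopolish gave the tag SUFFCLIP, for an alignment that ends before the read does, to 10825 of them. mt-Atp8 and mt-Atp6 are known to be translated from 1 bicistronic mRNA, and a read of that mRNA continues past the end of mt-Atp8. The tails attached to the clipped alignments had a median of 67.9 nt, close to the 67.8 nt of mt-Atp6. The 9 PASS reads of mt-Atp8 had tails of 7.04 to 177 nt, and 5 of the 9 aligned to less than the whole 3′ end. No tail distribution is given for mt-Atp8. It passed the read minimum of no comparison below except the read count fit with at least 1 read in all.

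Of the PASS reads of mt-Atp6 or its nuclear copy, 79.9% also covered mt-Atp8, from 78.1% in DMSO 21 to 82.2% in DMSO 24. Their median tail was 67.9 nt, against 67.8 nt for the mt-Atp6 reads that did not reach mt-Atp8. A smaller number of reads joined mt-Atp6 to mt-Co3, the next gene downstream. They made up 264 of 9440 PASS reads of mt-Co3 or its copy, or 2.80% (Wilson 95% interval 2.48 to 3.15%), and 186 of the 264 also covered mt-Atp8. The share per library ran from 1.91% in DMSO 24 to 3.31% in MHY 25, with intervals that overlapped. Median tails of the joined reads were 55.9 to 74.2 nt by library, on 20 to 44 reads each. In all libraries together they were 64.5 nt, against 69.8 nt for the other mt-Co3 reads, and they were the longer of the pair in MHY 23 and DMSO 24. mt-Co2 shared 33 reads with mt-Atp8, and mt-Co1 shared 0 with mt-Co3. mt-Cytb shared at most 2 reads with any of the other mRNAs.

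**Figure D1:**
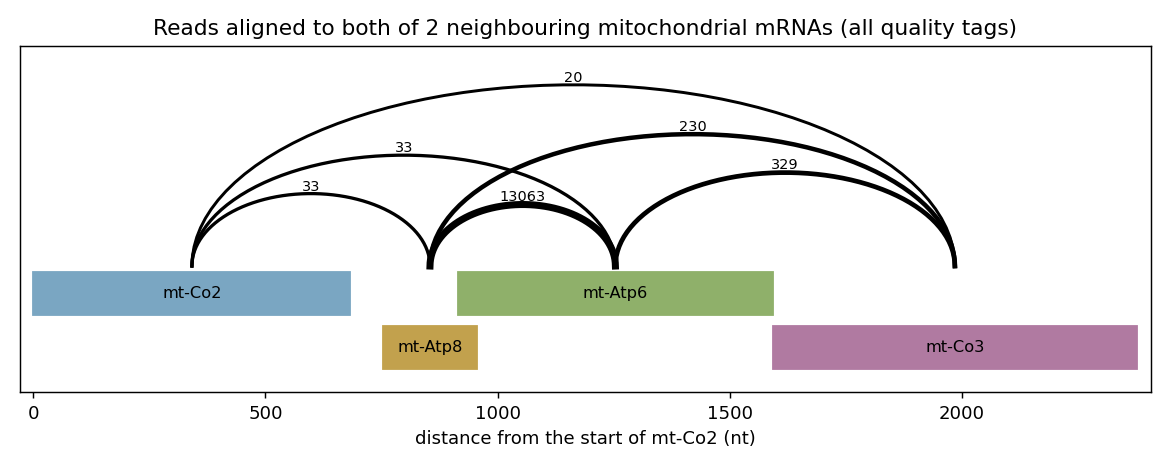
Boxes show the 4 neighbouring genes to scale, as distance in nt from the start of mt-Co2, and arcs give the number of reads aligned to both genes under any quality tag (reads on identical nuclear copies counted with their member). The 13063 reads joining mt-Atp8 and mt-Atp6 far outnumber the 329 joining mt-Atp6 and mt-Co3 and the 33 joining mt-Co2 and mt-Atp8.

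Some of these mRNAs cannot be separated from copies of mitochondrial DNA in the nuclear genome. On chromosome 1 (mm10), Gm28437 (24613189 to 24613971) matches mt-Co3 in 783 of 783 aligned bases and Gm10925 (24613974 to 24614651) matches mt-Atp6 in 678 of 678. Gm28661 (24614885 to 24615565) matches mt-Co2 in 681 of 681 bases, and Gm29216 (24615706 to 24616197) matches mt-Co1 in 482 of 483. The aligner placed 25.7% of the reads that fit mt-Co3 on Gm28437, 15.3% of those that fit mt-Atp6 on Gm10925, 4.38% for mt-Co2 and 2.73% for mt-Co1. The share for mt-Co3 lay between 22.7% and 27.6% in every library. Mapping quality reached 10 in 0% of mt-Co3 and mt-Atp6 reads, in 17.0% of mt-Co2 reads, and in 96.7% and 99.9% of mt-Co1 and mt-Cytb reads. Median tails on the copies were 69.2 nt for Gm28437, 68.3 nt for Gm10925, 53.4 nt for Gm28661 and 66.1 nt for Gm29216, each within 2 nt of its member. From which of the identical genes these reads come was not tested, so levels are given below with and without them.

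Most reads spanned their mRNA. The share that began within 30 nt of the annotated start was 91.1% to 94.4% for mt-Atp6, 86.3% to 88.2% for mt-Co3, 86.9% to 88.8% for mt-Co2, 70.1% to 75.9% for mt-Cytb and 63.0% to 69.7% for mt-Co1, the longest of the 5 at 1545 nt. Alignments reached within 30 nt of the annotated end in 94.6% to 96.7% of mt-Co1 reads and in 95.6% to 99.7% of the reads of the other 4. Reads that reached the start had median tails that differed from those of shorter reads by -1.37 to 1.54 nt by library for mt-Co1, by 0.14 to 1.83 nt for mt-Co2 and by 0.35 to 3.74 nt for mt-Cytb. For mt-Co3 the difference ran from -2.52 to 3.35 nt and for mt-Atp6, with few shorter reads, from -4.83 to 4.11 nt.

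Each of the 5 mRNAs had a narrow peak of tail lengths, and the positions of the peaks differed. Median tails over the 8 libraries were 69.9 ± 1.37 nt for mt-Co3, 67.9 ± 1.6 nt for mt-Atp6, 67.8 ± 1.81 nt for mt-Co1, 58.6 ± 2.07 nt for mt-Cytb and 53.9 ± 1.35 nt for mt-Co2 (mean ± SD, n = 8). The middle 50% of reads, over all libraries, ran from 61.6 to 79.1 nt for mt-Co3 and from 47.2 to 61.5 nt for mt-Co2. The 3 subunits of complex IV thus held both the longest and the shortest median. Tails of 30 to 90 nt, the class the study calls ~60-nt, held 88.5% of mt-Co1 and mt-Co3 reads, 88.6% of mt-Atp6, 92.3% of mt-Cytb and 95.7% of mt-Co2 reads. Tails under 30 nt were rare, from 0.464% for mt-Atp6 to 2.89% for mt-Cytb.

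**Figure D2:**
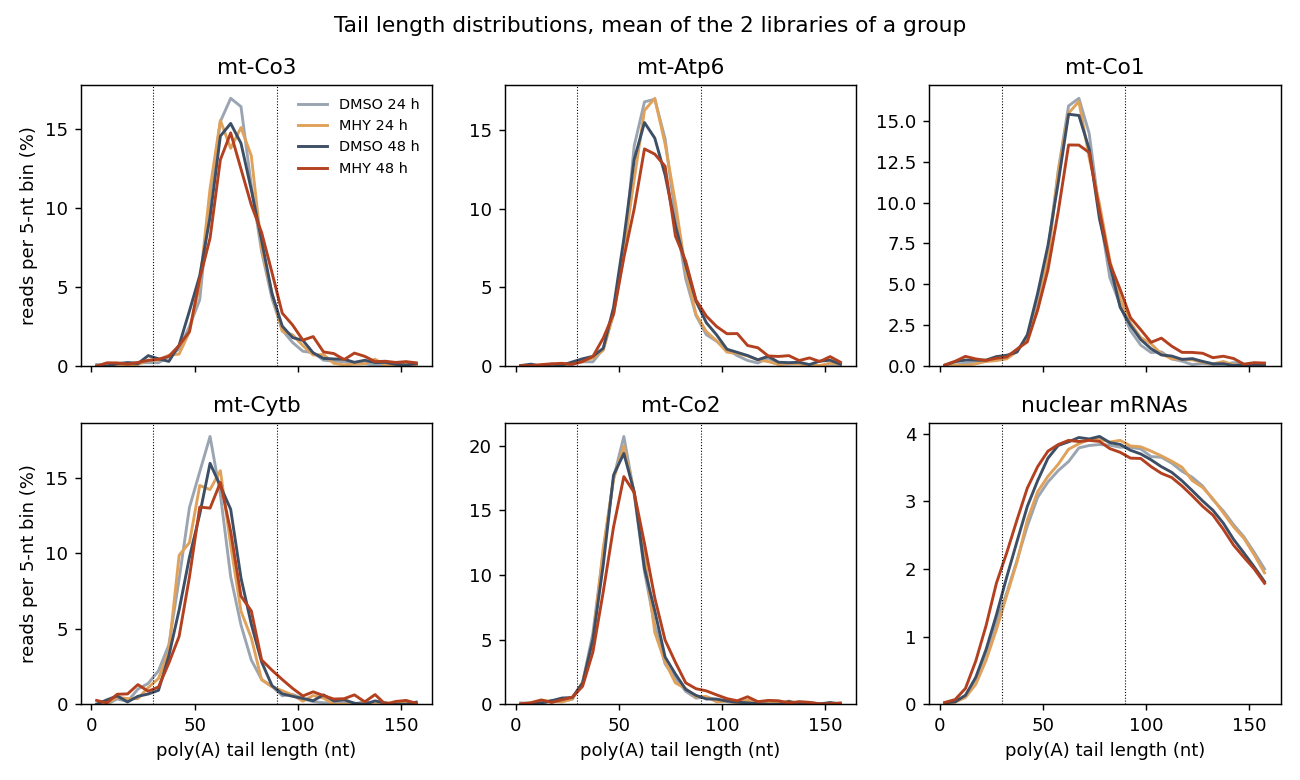
Each panel plots the percentage of reads per 5-nt bin against tail length in nt, as the mean of the 2 libraries of a group, with dotted lines at 30 and 90 nt. The 5 mitochondrial mRNAs peak between 50 and 75 nt, nuclear mRNAs spread over the whole range, and the line for MHY at 48 h is the highest in most bins past 90 nt in the mitochondrial panels.

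Neighbours in this order were compared within libraries by a two-sided exact sign-flip permutation test, adjusted over 4 pairs, whose smallest unadjusted p with 8 libraries is 0.00781. mt-Co3 exceeded mt-Atp6 by 2.06 ± 0.489 nt (SD), in 8 of 8 libraries (exact adjusted p = 0.0104). mt-Atp6 and mt-Co1 differed by 0.0756 ± 0.496 nt, with mt-Atp6 longer in 4 of 8 libraries (exact adjusted p = 0.742), so their order is not set by these data. mt-Co1 exceeded mt-Cytb by 9.13 ± 1.98 nt and mt-Cytb exceeded mt-Co2 by 4.79 ± 1.29 nt, each in 8 of 8 libraries (exact adjusted p = 0.0104 for both). The pair that lacks an encoded stop codon did not sit together, since mt-Co3 was the longest and mt-Cytb the fourth.

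As a group, the mRNAs described here had longer tails than the 7 mRNAs of complex I, the other mRNAs of the same genome. Their pooled median was 15 nt longer within libraries, from 12.9 nt in DMSO 25 to 16.9 nt in MHY 24 (exact sign-flip p = 0.00781, 8 of 8 libraries). Medians of single complex I mRNAs ran from 36.0 nt for mt-Nd4l, with 16 reads, to 51.6 nt for mt-Nd4. PASS was the tag of 0.625% of mt-Nd4l, 12.7% of mt-Nd5 and 10.2% of mt-Nd6 alignments, most of the rest being clipped as for mt-Atp8, so their medians (36.0 to 41.2 nt) rest on a small part of their reads. The 4 other complex I mRNAs, with 73.2% to 80.7% PASS, had medians of 48.1 to 51.6 nt, so that each lay below the 53.8 nt of mt-Co2 over all reads. Against transcripts of genes not named mt-, tails were shorter in every library (differences of -38.2 to -25.5 nt, mean -34.4 nt, exact sign-flip p = 0.00781). Those transcripts had medians of 92.3 to 102 nt.

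**Figure D3:**
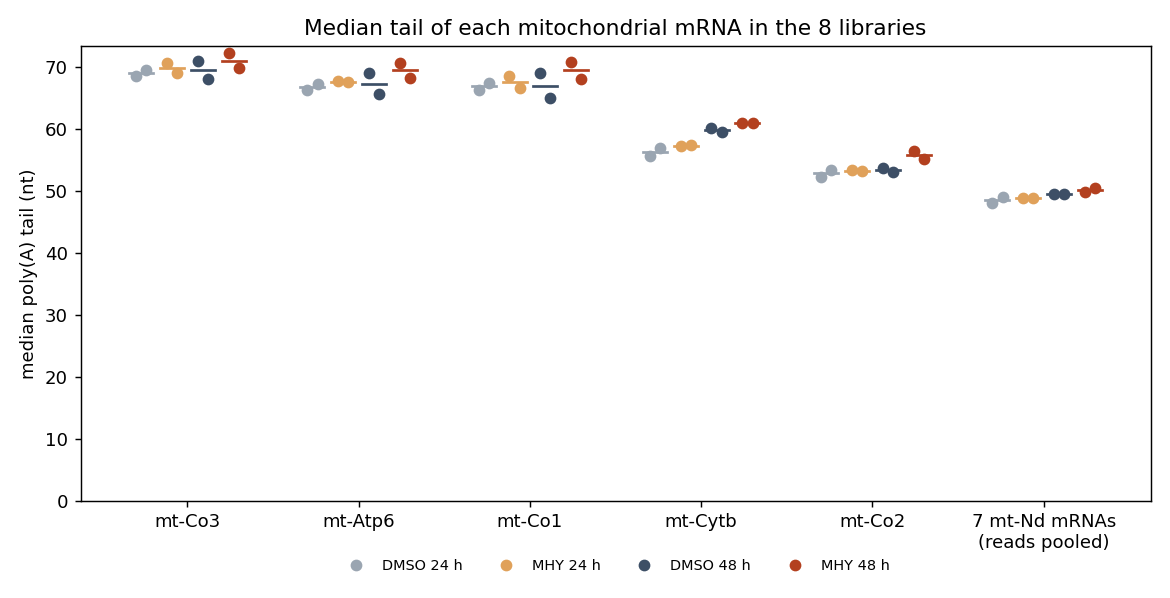
Median tail in nt is plotted for the 5 mRNAs, in order, and for the pooled reads of the 7 complex I mRNAs, with 1 point per library and a bar at the mean of each group. The medians of mt-Co3, mt-Atp6 and mt-Co1 stay between 65.0 and 72.3 nt in every library, and those of complex I between 48.1 and 50.5 nt.

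Whether activation of mTOR changed the tails of mitochondrial mRNAs was asked at each time point. At 48 h, the share of reads with tails over 90 nt was higher with MHY for each of the 5 mRNAs. It rose from a mean of 8.72% to 15.4% for mt-Co1, 10.7% to 17.5% for mt-Atp6, 10.3% to 15.8% for mt-Co3, 4.01% to 8.56% for mt-Cytb and 2.05% to 4.95% for mt-Co2, and both MHY libraries exceeded both DMSO libraries in every case. This measure was added after its values were seen. At 24 h no member was called with all 8 libraries in the fit.

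For mt-Co1, the share over 90 nt at 48 h was 10.7% in DMSO 24 and 6.76% in DMSO 25, against 14.1% in MHY 24 and 16.7% in MHY 25. At 24 h it was 8.0% and 7.03% with DMSO and 9.76% and 8.73% with MHY (libraries 21 and 23 in that order). The MHY libraries lay above the DMSO libraries at both times, by less at 24 h. In the limma fit over all transcripts, the log2 odds rose by 1.06 ± 0.135 (SE) at 48 h (adjusted p = 0.000127), and the 24 h value was 0.35 ± 0.139 (adjusted p = 0.990). The weights of this fit equal reads and take no account of the share. Counting error in log2 odds is larger for low shares, so the SE and adjusted p given for these mRNAs may be too small. With the 4 libraries of 24 h alone, mt-Co1 was called at the same log2 odds (0.35 ± 0.0685, limma adjusted p = 0.000753), 1 of 7 transcripts called among 2007. That fit used the same weights, so its SE and adjusted p may be too small as well. Wilson intervals, for counting error only, were 6.94 to 9.21% in DMSO 21 and 6.10 to 8.10% in DMSO 23. They were 8.65 to 11.0% in MHY 21 and 7.51 to 10.1% in MHY 23. Only those of DMSO 23 and MHY 21 were apart, so this call is not taken as an effect at 24 h.

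For mt-Co2, which has the shortest tails of the 5, the share over 90 nt at 48 h was 2.57% and 1.53% in DMSO 24 and 25, against 3.81% and 6.09% in MHY 24 and 25. At 24 h it was 2.83% and 2.34% with DMSO and 3.21% and 2.10% with MHY, and the groups overlapped. The log2 odds rose by 1.34 ± 0.191 at 48 h (limma adjusted p = 0.000387).

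For mt-Co3, the 48 h values were 11.8% and 8.70% with DMSO and 14% and 17.5% with MHY, without overlap. Those at 24 h were 6.85% and 8.92% with DMSO and 10.1% and 8.09% with MHY, with overlap. The log2 odds rose by 0.72 ± 0.157 at 48 h (limma adjusted p = 0.0208), the smallest of the 5 changes.

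For mt-Atp6, the 48 h values were 13.0% and 8.44% with DMSO and 15.6% and 19.4% with MHY. Those at 24 h were 6.29% and 8.55% with DMSO and 8.08% and 8.32% with MHY, again with overlap only at 24 h. The log2 odds rose by 0.86 ± 0.156 at 48 h (limma adjusted p = 0.00434).

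For mt-Cytb, the 48 h values were 4.11% and 3.90% with DMSO and 6.25% and 10.9% with MHY. At 24 h they were 3.29% and 2.81% with DMSO and 3.61% and 3.74% with MHY. The groups did not overlap at either time, and the log2 odds rose by 1.04 ± 0.173 at 48 h (limma adjusted p = 0.00174).

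All 5 tested members were called at 48 h, against 0.896% of the 1898 transcripts in the same comparison, of which 6 rose and 11 fell. The 6 that rose were these 5 and mt-Nd2 of complex I (log2 odds 1.58 ± 0.247, adjusted p = 0.00114), which is named after its values were seen. The mt-Nd2 call rests on 3 and 5 reads over 90 nt in DMSO 24 and 25, against 11 and 10 in MHY 24 and 25. All 6 have low shares over 90 nt, where the SE may be too small. Their calls and the share of all transcripts called are thus not a like comparison. The pooled reads of the complex I mRNAs moved from 1.79% and 1.76% with DMSO to 2.80% and 3.72% with MHY. Transcripts of genes not named mt- had 54.9% and 56.8% of tails over 90 nt with DMSO and 51.6% and 55.9% with MHY at 48 h, and the median log2 odds over all transcripts was -0.10. At 24 h, 0% of transcripts were called by limma, and 75 transcripts, 1 of them a member, had an unadjusted p under 0.05. The difference between the treatment effects at 48 h and 24 h was called for 0% of transcripts and for 0 of 5 members by limma. At an unadjusted p under 0.05 it counted 70 transcripts, with 5 of 5 members among them. Adjusted p was 0.274 for mt-Co2, 0.762 for mt-Co1 and 0.990 for mt-Atp6, mt-Co3 and mt-Cytb. Under alternatives the difference was called for mt-Co1 and mt-Co2 with the replicate block, for mt-Co2 at mapping quality of at least 10 and with nuclear copies added, for mt-Co1, mt-Co2 and mt-Atp6 without DMSO 24, and for mt-Co2 and mt-Cytb without MHY 24. Whether the effect differs between the times therefore depends on these settings.

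The calls at 48 h were not made under every alternative. Without weights, or with the 4 libraries of 48 h alone, 0 of 5 members were called at the same or similar log2 odds (without weights, from 0.72 for mt-Co3 to 1.31 for mt-Co2). Without DMSO 25 the call was lost for mt-Atp6 (adjusted p = 0.225) and mt-Co3 (adjusted p = 0.842). The log2 odds without that library were 0.59 for mt-Co1, 0.46 for mt-Atp6, 0.43 for mt-Co3, 0.89 for mt-Co2 and 0.99 for mt-Cytb, the first 4 of them lower than with all libraries by 1.5 times or more. Without MHY 25 it was lost for mt-Co3 (adjusted p = 0.0529), with log2 odds from 0.56 for mt-Co3 to 1.03 for mt-Co2, and 0.67 for mt-Cytb. Leaving out any 1 library of 24 h also ended the call of mt-Co3 (adjusted p 0.0582 to 0.0732), and the calls of mt-Co1, mt-Co2 and mt-Cytb were made without each library in turn. MHY 25 also held the longest tails. Its share over 120 nt was 5.63% of the pooled reads, against 2.55% in MHY 24 and 1.40% to 2.10% in the other 6 libraries. Over the pooled reads, the share over 90 nt at 48 h was 7.36% ± 2.05 with DMSO and 12.7% ± 2.21 with MHY (SD, n = 2), a difference of 5.38 percentage points (exact permutation p = 0.333, the smallest that 2 against 2 libraries allow). Within the 2 runs of 48 h the difference was 6.25 and 4.72 percentage points, and in both runs the MHY libraries exceeded the DMSO libraries for each of the 5 mRNAs. With barcode confidence of at least 0.9, the 5 calls were made as well and the pooled difference was 6.43 percentage points. The mean translocation rate, from which Nanopolish derives tail lengths, was 120 to 121 nt per second in the pooled reads of all 4 libraries at 48 h.

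**Figure D4:**
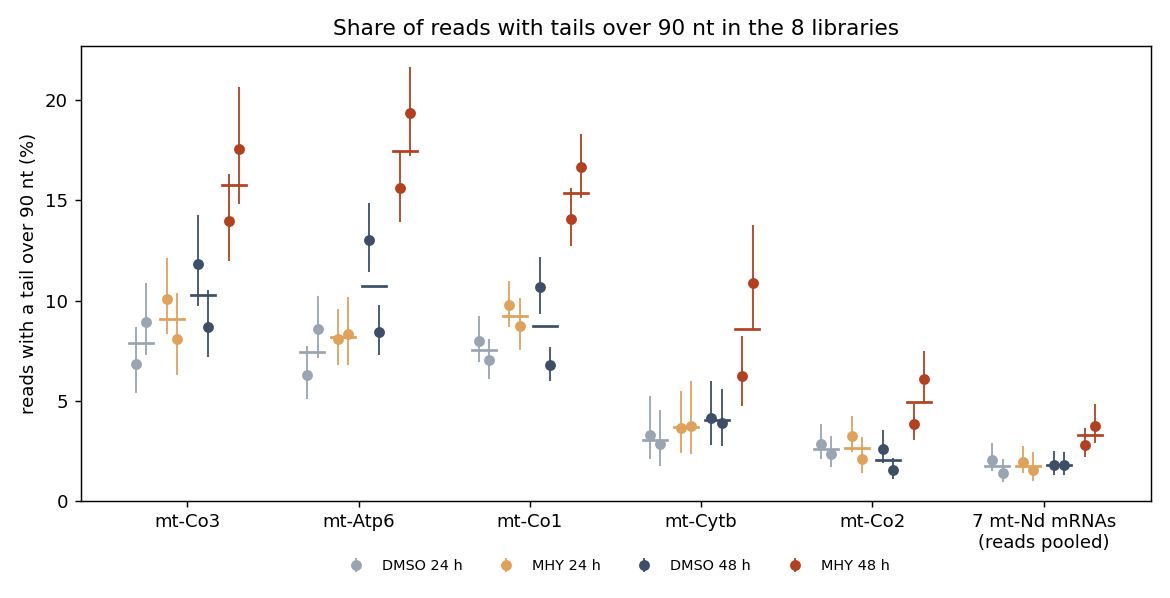
The percentage of reads with a tail over 90 nt is plotted for each mRNA and for the pooled complex I mRNAs, with 1 point per library, Wilson 95% intervals that cover counting error only, and a bar at each group mean. At 48 h both MHY libraries lie above both DMSO libraries in all 6 columns, by the most in MHY 25.

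The median tail was compared in the same libraries. At 48 h the median tail of mt-Co1 was 69.1 and 65.0 nt with DMSO and 70.9 and 68.1 nt with MHY, so the groups overlapped. That of mt-Atp6 was 69.1 and 65.6 nt with DMSO and 70.8 and 68.3 nt with MHY, and that of mt-Co3 was 71.1 and 68.1 nt against 72.3 and 69.9 nt, with the same overlap. For mt-Co2 the groups were apart, at 53.8 and 53.0 nt with DMSO and 56.5 and 55.3 nt with MHY. They were apart for mt-Cytb as well, at 60.2 and 59.5 nt against 61.0 and 61.1 nt. In each of these 3 mRNAs with overlap, libraries numbered 24 were higher than those numbered 25 in both treatments.

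None of the 5 was called in median tail at 48 h (limma on log2 medians), against 0.58% of transcripts called, all 11 of them lower. By unadjusted p under 0.05 there were 159 transcripts, including mt-Co1 and mt-Co2. The log2 changes were 0.03 to 0.07, with adjusted p of 0.318 for mt-Co2 and 0.411 for mt-Co1. At 24 h the 5 log2 changes were 0.01 to 0.03, 0% of transcripts were called, 76 passed at unadjusted p under 0.05 and none of these was a member. For the difference of the effects 0% were called, with 91 transcripts and 0 members at unadjusted p under 0.05. Pooled medians were 63.8 ± 1.93 nt with DMSO and 65.6 ± 1.61 nt with MHY at 48 h (exact permutation p = 0.667, smallest possible 0.333, n = 2 each), and 63.6 ± 0.633 and 64.1 ± 0.410 nt at 24 h (exact permutation p = 0.667). With means in place of medians, 3 of the 5 were called at 48 h, and the pooled difference was 3.90 nt instead of 1.87 nt.

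Tails under 30 nt were few, with 2 to 58 reads per mRNA and library, and no member was called for MHY against DMSO in either direction. For mt-Cytb the share under 30 nt at 48 h was 2.30% and 2.09% with DMSO and 4.21% and 3.50% with MHY (log2 odds 0.84 ± 0.252, limma adjusted p = 0.253). For mt-Co1 it was 2.53% and 1.45% against 2.61% and 1.84%, with overlap. Of all transcripts 0.369% were called at 48 h, 7 of them upward and 0 downward, with 204 transcripts and 1 member at unadjusted p under 0.05. At 24 h 0% were called (112 transcripts and 2 members at unadjusted p under 0.05 in limma), and 0% for the difference of the effects (165 transcripts and 2 members).

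Between time points, the extremes of the distributions were compared over all 8 libraries. The share under 30 nt was higher in every 48 h library than in every 24 h library for 4 mRNAs. For mt-Atp6 it was 0.160% to 0.475% at 24 h and 0.498% to 0.685% at 48 h, and for mt-Co2 it was 1.00% to 1.25% and 1.34% to 1.52%. For mt-Co1 it was 0.556% to 1.23% and 1.45% to 2.61%, and for mt-Co3 0.588% to 0.912% and 0.932% to 1.32%. mt-Cytb was the exception, with 1.87% to 3.51% at 24 h and 2.09% to 4.21% at 48 h. None passed the limma fit (adjusted p 0.0998 to 0.929), in which 0% of transcripts were called, though 186 transcripts and 4 of the 5 members had an unadjusted p under 0.05.

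The share over 90 nt rose from 24 h to 48 h, averaged over treatments, for mt-Atp6 (log2 odds 0.87 ± 0.116, limma adjusted p = 0.000280), mt-Cytb (0.78 ± 0.130, adjusted p = 0.00444), mt-Co3 (0.60 ± 0.111, adjusted p = 0.00514) and mt-Co1 (0.46 ± 0.0968, adjusted p = 0.0130). That is 4 of 5 members against 2% of transcripts, of which 6 rose and 32 fell. mt-Co2 was not called (log2 odds 0.18 ± 0.142, adjusted p = 0.680). Without each library in turn, its log2 odds ran from 0.03 to 0.41. The libraries of the times did not overlap for mt-Cytb, while those of mt-Atp6, mt-Co3, mt-Co1 and mt-Co2 did. Among the DMSO libraries alone, the times also overlapped for mt-Atp6, mt-Co3 and mt-Co1 in the values given above. Without weights 0 of 5 members were called. Without MHY 21 none of these calls was made, without MHY 23 1 was made, and without either DMSO library of 24 h 2 were made. mt-Atp6 was called in each of these but the first. The translocation rate of the pooled reads also differed, at 126 to 127 nt per second at 24 h and 120 to 121 at 48 h, and its part in these values was not tested.

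The median tail of mt-Cytb was 55.6 to 57.4 nt in the 4 libraries of 24 h and 59.5 to 61.1 nt in those of 48 h. The sets did not overlap (exact permutation p = 0.0286, the smallest that 4 against 4 allow, before adjustment for 5 mRNAs), and in the limma fit the log2 change was 0.09 ± 0.0276 (adjusted p = 0.146). The medians of the other 4 mRNAs overlapped between times, and no member was called, against 1.21% of transcripts, all 23 of them lower. At unadjusted p under 0.05 there were 208 transcripts, 2 of them members.

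The read levels of the 5 mRNAs were compared per length, and their shares of reads are given beside them, because the order depends on the scale. PASS reads divided by transcript length in kb and by the library's PASS reads (the RPKM scale) were 8816 ± 911 for mt-Co2, 8226 ± 1089 for mt-Atp6, 5989 ± 875 for mt-Co1, 4474 ± 656 for mt-Co3 and 2049 ± 201 for mt-Cytb (mean ± SD, n = 8). Each nanopore read is 1 molecule, and as a share of all PASS reads mt-Co1 came first, with 0.681% to 1.09%, and mt-Cytb last, with 0.197% to 0.270%. Between neighbours per length, mt-Atp6 exceeded mt-Co1, mt-Co1 exceeded mt-Co3 and mt-Co3 exceeded mt-Cytb each in 8 of 8 libraries (exact sign-flip adjusted p = 0.0104, over 4 pairs). mt-Co2 exceeded mt-Atp6 in 7 of 8 libraries (exact adjusted p = 0.0156). With the reads on the nuclear copies added, mt-Atp6 came before mt-Co2, at 9711 ± 1301 against 9225 ± 962 (6 of 8 libraries, exact adjusted p = 0.104). mt-Co1 and mt-Co3 then lay together, at 6155 ± 891 and 6036 ± 893 (mt-Co1 higher in 2 of 8 libraries, exact adjusted p = 0.727). On this scale per length, the last place of mt-Cytb and the order of mt-Co2 and mt-Atp6 above mt-Co1 and mt-Co3 held with and without the copies. By read share, without division by length, mt-Co1 came before mt-Co2 and mt-Atp6 in each of the 8 libraries, an order that is given as a description with no test.

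**Figure D5:**
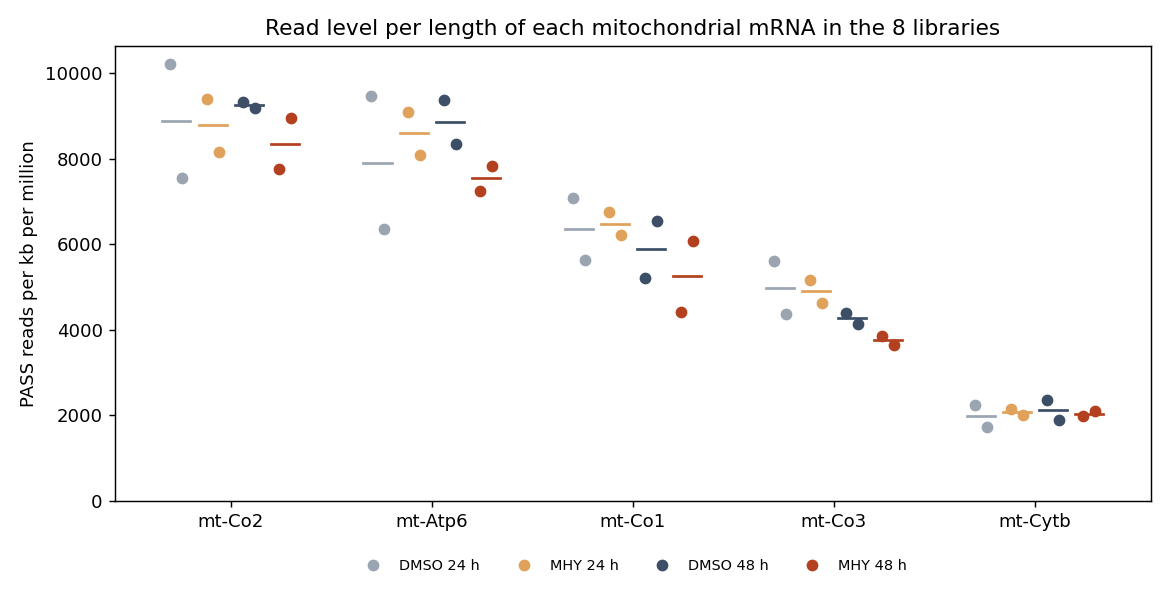
PASS reads per kb of transcript, scaled to the library's PASS reads (RPKM scale), are plotted for the 5 mRNAs, with 1 point per library and a bar at each group mean. mt-Cytb lies lowest in every library, between 1721 and 2357.

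At 48 h the log2 changes in read level with MHY were below 0 for all 5 mRNAs with all libraries in the fit, and no member was called. As shares of all PASS reads, mt-Atp6 had 0.639% and 0.569% with DMSO and 0.493% and 0.534% with MHY at 48 h, without overlap. mt-Co3 had 0.345% and 0.324% against 0.302% and 0.286%, and mt-Co2 0.638% and 0.627% against 0.531% and 0.612%, also without overlap. mt-Co1 had 0.805% and 1.01% against 0.681% and 0.939%, and mt-Cytb 0.270% and 0.215% against 0.226% and 0.241%, both with overlap. In limma voom on reads counted from the table, log2 changes at 48 h were -0.32 ± 0.104 for mt-Atp6 (adjusted p = 0.138), -0.30 ± 0.102 for mt-Co1 (adjusted p = 0.158), -0.27 for mt-Co3, -0.25 for mt-Co2 and -0.13 for mt-Cytb. These values moved with single libraries. Without MHY 24 the change was 0.02 for mt-Co1, -0.07 for mt-Co2, -0.01 for mt-Cytb and -0.19 for mt-Atp6, and no member had an unadjusted p under 0.05. Without DMSO 24 it was 0.01 for mt-Cytb, and mt-Co1 was called at -0.46 (adjusted p = 0.00988). Without DMSO 25 it was -0.10 for mt-Co1, and without MHY 25 it was -0.55 for mt-Co1, -0.41 for mt-Atp6 and -0.38 for mt-Co2. Of 4152 transcripts, 0.915% were called, and at unadjusted p under 0.05 there were 515, 4 of them members. All 5 mRNAs together made up 2.72% ± 0.0361 of reads with DMSO and 2.42% ± 0.269 with MHY at 48 h (exact permutation p = 0.333, the smallest possible with n = 2 each). At 24 h they made up 2.74% ± 0.545 and 2.81% ± 0.210 (exact permutation p = 1), the 2 DMSO libraries being the highest and the second lowest of all 8, at 3.13% and 2.36%.

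At 24 h, 0.0482% of transcripts were called in read count, none of them a member, and no member had an unadjusted p under 0.05. For the difference of the treatment effects it was 0.193%, again with no member, although 2 members, mt-Co1 and mt-Atp6, had an unadjusted p under 0.05 (adjusted p = 0.527 and 0.245). When 34786 transcripts with at least 1 read were kept, mt-Atp8 among them, 3 members were called higher at 24 h, 4 lower at 48 h and 5 lower in the difference. That fit gave mt-Co1 an adjusted p of 2.77e-228 at 24 h for a log2 change of 0.16, although its DMSO and MHY libraries overlapped. From 24 h to 48 h, mt-Co3 fell by 0.35 ± 0.0779 on the log2 scale (limma adjusted p = 0.0115) and mt-Co1 fell by 0.27 ± 0.0724 (adjusted p = 0.0466), against 0.723% of transcripts called. The other 3 had log2 changes of -0.05 to -0.01. Without DMSO 21, MHY 21 or MHY 23, and with barcode confidence of at least 0.9, neither mRNA was called. mt-Co1 alone lost its call without DMSO 24 or MHY 24, and mt-Co3 alone without DMSO 25.

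The nuclear genes that serve mitochondrial gene expression and the respiratory chain were counted beside these mRNAs. Of 37 listed factors of mitochondrial transcription, RNA processing, polyadenylation, stability and translation, 36 had a read. In read count 18 had enough reads to test, as 19 transcripts, and 0 rose and 0 fell in any of the 4 contrasts. Tails could be tested for 5 of them, with 0 calls. The median log2 change of the tested factors in read count at 48 h was -0.06, beside -0.01 over all transcripts. Slirp, a partner of Lrpprc in keeping mitochondrial mRNAs stable, had the most reads of the list (556). Its level was 270 and 282 RPM (of PASS reads) with DMSO and 340 and 324 with MHY at 48 h, without overlap (log2 change 0.19 ± 0.188, limma voom adjusted p = 0.743). Tufm, the mitochondrial elongation factor Tu, had 259 reads, and Hsd17b10, a subunit of mitochondrial RNase P, had 238.

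Of 42 nuclear-encoded genes for subunits of complexes III, IV and V with a read, 37 could be tested in read count (51 transcripts) and in tails (43 transcripts). For MHY against DMSO, 0 rose and 0 fell in any measure at either time. From 24 h to 48 h, the median tail fell for 1 transcript, of Cyc1, cytochrome c1 of complex III, by 0.32 on the log2 scale (limma adjusted p = 0.0323). The share over 90 nt fell for 1 transcript, of Cox5b, a subunit of complex IV (log2 odds -0.64 ± 0.163, adjusted p = 0.0400). At 48 h the median log2 odds of a tail over 90 nt with MHY was -0.11 for these transcripts, beside -0.10 over all transcripts and 1.04 over the 5 mRNAs described here.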

How the data were processed

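Nanopore direct RNA sequencing of 8 libraries was analysed from a deposited table in which each line is an alignment. The authors used Guppy for base calling, minimap2 (2.20 in the submitters' processing notes) with GENCODE vM17 transcripts (mm10), Nanopolish for tails and Deeplexicon for barcodes. The tail length they deposited is a per-read estimate in nt, and translocation rate and alignment positions are also as the authors wrote them, with no normalization. The deposited mapping quality is a score of minimap2, and the deposited barcode confidence is a fraction. The study itself set mitochondrial transcripts aside. The columns of samples that matched no label numbered 0.

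PASS alignments were kept, once per read and transcript. Groups came from the labels, and which accession of a group is which library is not needed for any value. The members and gene lists were chosen with earlier results of these data known. Named are all members, complex I mRNAs as a group with their range, factors by their calls or most reads, and nuclear subunits by their calls.

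Differences within libraries were tested by two-sided exact sign-flip permutation and treatments by two-sided exact permutation of libraries. Across transcripts, limma 3.58.1 (R 4.3.3) was fitted to all 8 libraries with 1 mean per group. The values were log2 median tails, or log2 odds of tails under 30 or over 90 nt with 0.5 read added to each class. Both used transcripts that reached 10 reads in every library and weights equal to reads. Such weights do not depend on the share, so the SE of log2 odds can be too small where few tails are in a class. Reads per transcript were counted from the lines, since no count column exists, and fitted with limma voom after median-of-ratios scaling, for at least 10 reads in at least 2 libraries. Adjusted p-values (Benjamini-Hochberg, threshold 0.05) cover all transcripts of a contrast. The fits were run on simulated data. For tail shares the simulation held counting error only, so it cannot show how the calls behave under spread between libraries. Alternatives covered mapping quality, barcode confidence, single alignments, alignment end, mean tails, weights, filters, scaling, each library left out, runs, the replicate block and nuclear copies. Transcript ends and lengths were read from GENCODE vM21 (mm10), in which the 6 mRNAs have the deposited positions. Wilson intervals cover counting error only.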

Additional observations from a re-analysis of the deposited data

Results flagged for a closer look

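For mt-Atp6, the share of PASS reads that began within 30 nt of the annotated start moved in opposite directions at the 2 times. At 24 h both MHY libraries (94.4% and 94.2%) lay above both DMSO libraries (93.2% and 92.1%), a mean difference of 1.65 percentage points. At 48 h both MHY libraries (92.0% and 91.1%) lay below both DMSO libraries (93.2% and 92.5%), a mean difference of -1.29 percentage points. The difference between the times was not tested.

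A higher share of tails over 90 nt was also present in reads that the main comparisons did not use, although they came from the same libraries. Reads placed on the nearly identical nuclear copies of mt-Co1, mt-Co2, mt-Co3 and mt-Atp6 had tails over 90 nt in 12.8% and 7.54% of cases with DMSO and in 13.1% and 15.2% with MHY at 48 h, a mean difference of 3.96 percentage points. At 24 h the means were 7.02% with DMSO and 9.44% with MHY, also without overlap. The mt-Atp8 alignments with a clipped end had 13.1% and 8.09% with DMSO and 15% and 19.6% with MHY at 48 h, a mean difference of 6.68 percentage points. These are mostly the same molecules as the mt-Atp6 reads, so they are not a separate measurement.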

How the results depend on the processing

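With 2 libraries per group the smallest exact p is 0.333, above any threshold, for treatment results on pooled reads. Depth limits tails under 30 nt and all values of mt-Atp8. The alternatives planned for mt-Rnr1 and mt-Rnr2 were not run. Alternatives marked here as added were chosen after seeing the data.

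The pooled tail differences against complex I mRNAs (14.7 to 15.3 nt without each library, up to 16.0 nt otherwise) and against transcripts of genes not named mt- (-35.7 to -33.9 nt without each library, -39.5 to -33.7 nt otherwise) kept their direction and side of the threshold under all alternatives run. The number of called pairs of neighbours was 3 without each library and with nuclear copies added. The pooled read share difference at 24 h (0.0624 percentage points) changed sign within run 1 (-0.00514) and ranged from -0.323 to 0.448 without each library. Without each library, the pooled median difference was 0.095 to 0.99 nt at 24 h and 0.50 to 3.23 nt at 48 h, the read share difference at 48 h was -0.490 to -0.109 percentage points, and the share over 90 nt differed by 0.658 to 1.44 points at 24 h and 3.81 to 6.94 points at 48 h.

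Correlations of same-numbered libraries' deviations were -0.00464 at 24 h and 0.109 at 48 h. With 2 libraries per group both pairs of a time give the same value, so whether same-numbered libraries are paired is not settled. In the replicate block the pooled differences were 0.543 nt and 1.87 nt in median, 0.0624 and -0.300 points in read share and 1.05 and 5.38 points over 90 nt. The block made 1 member call in the <30-nt share over time and 2 in the difference of effects over 90 nt, and left the other counts of members the same.

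Counts of members called moved elsewhere as follows. For MHY against DMSO over 90 nt at 48 h there were 5 calls, 0 in the 4 libraries of 48 h alone, 0 without weights, 3 (of 3 testable) at mapping quality of at least 10, and 3 to 5 without each library. At 24 h there was 1 (mt-Co1) in the 4 libraries alone, with an SE that may be too small, as described above. For the difference of effects over 90 nt there was 1 at mapping quality of at least 10, 1 with nuclear copies added, and 0 to 3 without each library. Over time there were 4 calls over 90 nt, 2 at mapping quality of at least 10, 0 without weights, and 0 to 5 without each library. In median tail, mean tails gave 3 at 48 h and 1 over time, and leaving out each library gave 0 to 1 at 48 h. In the <30-nt share over time, leaving out each library gave 0 to 1. In read count, the filter of at least 1 read in all gave 3 at 24 h, 4 at 48 h and 5 for the difference, reads summed per gene gave 2 at 48 h, and leaving out each library gave 0 to 3 at 48 h, 0 to 2 for the difference and 0 to 2 over time. Over time there were 2 calls, 1 at mapping quality of at least 10, 0 at barcode confidence of at least 0.9, 1 with nuclear copies added and 3 with at least 1 read in all. The causes were not tested.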
